A study of Mus musculus with 12 samples.

Results

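A list of 40 named genes of the interferon response and of antigen presentation was followed in teratomas, the tumours of mixed tissues that mouse embryonic stem (ES) cells form in a host. They were taken by symbol. All 40 of 40 were found among the 38986 genes listed, Ddx58 under its newer symbol Rigi. All 40 had counts and all 40 passed the filter on low counts, which left 18405 genes for testing. They fall into 15 antiviral effectors, 4 transcription factors, 4 nucleic acid sensors, 4 guanylate-binding GTPases and chemokines of the interferon-gamma response, 9 genes of the MHC class I pathway and 4 of the MHC class II pathway.

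The teratomas came from R1 mouse ES cells transduced with a lentiviral vector whose CAG promoter is active in most cell types, and selected with puromycin as stable lines. The vector was empty (ET) or carried wild-type Dnmt3L (WT), a cofactor of the DNA methyltransferases, or Dnmt3L with a lysine changed to arginine at the position that the names K238R and K412R give. In every group 5000000 cells were injected under the skin of 8-week-old male NOD-PrkdcEM1 mice, and the tumours were collected at day 21. Each of the 4 groups had 3 libraries, 1 per teratoma, and the 12 libraries held between 16957677 and 18546100 counts. NOD mice with the Prkdc defect lack mature T and B cells but keep macrophages, and the libraries hold transcripts of host and graft together. In such bulk samples fewer cells of a type and less RNA per cell cannot be told apart. Tissue markers of a teratoma were present in every library, for example the neuronal gene Tubb3 with 7008 to 11941 counts.

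Interferons are secreted proteins that warn cells of infection. Type I interferons signal through Ifnar1 and Ifnar2 to a complex that holds Stat2 and Irf9 and binds the interferon-stimulated response element (ISRE) in promoters. Interferon-gamma, made by T and NK cells, signals through Ifngr1 and Ifngr2, and its response runs through the gamma-activated site (GAS). Both raise the MHC molecules that show peptides to T cells. Undifferentiated ES cells are known for a weak interferon response and little MHC class I, both of which increase as the cells differentiate.

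The following facts about the libraries bear on what follows. Dnmt3l, the gene that the constructs carry, had 39, 11 and 137 counts in the ET libraries, 2941, 3643 and 3581 counts with WT, and 699, 677 and 463 with K412R. The K238R-labelled libraries held 35, 20 and 10, within or below the ET values, so the name K238R stands below for a label. WT replicates 2 and 3 held 44 and 17 counts of the pluripotency gene Pou5f1 against 246 to 883 in the other 10 libraries. K412R replicate 2 stood apart from all others in the genes described here, and fold changes of members that rest on it are given with and without it.

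Many promoters of these genes carry the response elements. RefSeq windows of 250 bases before to 50 after the start (GRCm38.p6) were at hand for 29 of the 40 members. The core of the ISRE, written GAAANNGAAA and searched on both strands, was found in 15 of these 29 genes (51.7%), against 3.99% of the 27025 genes with such windows. It was held by 7 of 11 antiviral effectors and by 3 of 4 GTPases and chemokines. It was also in both sensors with a window, in 2 of 7 class I genes and in 1 of 4 transcription factors, Stat2 itself. The core of the GAS, TTCNNNGAA, was in 5 of the 29 genes (17.2%), against 9.55% of all genes. It was in 3 of 11 antiviral effectors, 1 of 4 transcription factors and 1 of 7 class I genes. It was in 0 of 4 GTPases and chemokines, 0 of 2 sensors and 0 of 1 class II gene. The ISRE core was in 9 of 18 members with a window that were highest in K412R replicate 2, and in 6 of 11 other members. The following stretches are given 5′ to 3′ on the strand of the gene, all upstream of its start. They show the element in 2 effectors, the factor Stat2, the class I light chain gene B2m and the GTPases Gbp2, Gbp3, Gbp5 and Igtp. Capitals mark the ISRE core on either strand, and overlapping cores run together.
Isg15, chr4:156200845-156200926, - strand: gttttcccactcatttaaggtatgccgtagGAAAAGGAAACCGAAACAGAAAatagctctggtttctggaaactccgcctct
Rsad2, chr12:26456533-26456602, - strand: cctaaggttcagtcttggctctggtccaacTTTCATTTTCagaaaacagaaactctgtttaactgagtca
Stat2, chr10:128270248-128270315, + strand: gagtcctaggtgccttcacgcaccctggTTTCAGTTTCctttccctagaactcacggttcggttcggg
Gbp2, chr3:142620574-142620643, + strand: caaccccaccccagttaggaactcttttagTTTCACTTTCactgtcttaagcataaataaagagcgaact
Gbp3, chr3:142559969-142560043, + strand: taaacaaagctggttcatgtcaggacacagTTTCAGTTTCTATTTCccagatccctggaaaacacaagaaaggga
B2m, chr2:122147518-122147587, + strand: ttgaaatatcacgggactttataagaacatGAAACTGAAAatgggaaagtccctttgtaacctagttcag
Gbp5, chr3:142496739-142496808, + strand: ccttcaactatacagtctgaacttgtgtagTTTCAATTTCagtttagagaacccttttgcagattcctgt
Igtp, chr11:58199492-58199555, + strand: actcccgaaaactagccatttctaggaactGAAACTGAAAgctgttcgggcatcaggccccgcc
Gbp5 and Igtp are not members and come from a list of 87 further genes of the pathway. The element was near the start in Gbp2 (59 bases before it) and Gbp3 (45 and 39 bases before it) and farther away in Stat2 (222 bases before it). Isg15 held 3 overlapping cores between 78 and 66 bases before its start. A match of letters is a description of these windows and not a measured site.

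Levels are given as CPM, the counts of a gene scaled to the library total, which compare a gene between libraries but not genes of unequal length. Together the 40 members held 0.0330% to 0.0512% of a library. The lowest share was in WT replicate 2 and the highest in K412R replicate 2, followed by WT replicate 1 with 0.0492%. The median member had a mean of 4.62 CPM against 17.2 CPM for the median gene tested, so many members rest on few counts. Total counts over the 12 libraries ran from 161 for Oas3 to 20644 for B2m. Within a group the median coefficient of variation of the members was 19.7% in ET, 24.8% in WT, 14.5% in the K238R-labelled libraries and 25.7% in K412R. Over all genes tested it was 18.1%, 13.4%, 13.8% and 11.9%.

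**Figure D1:**
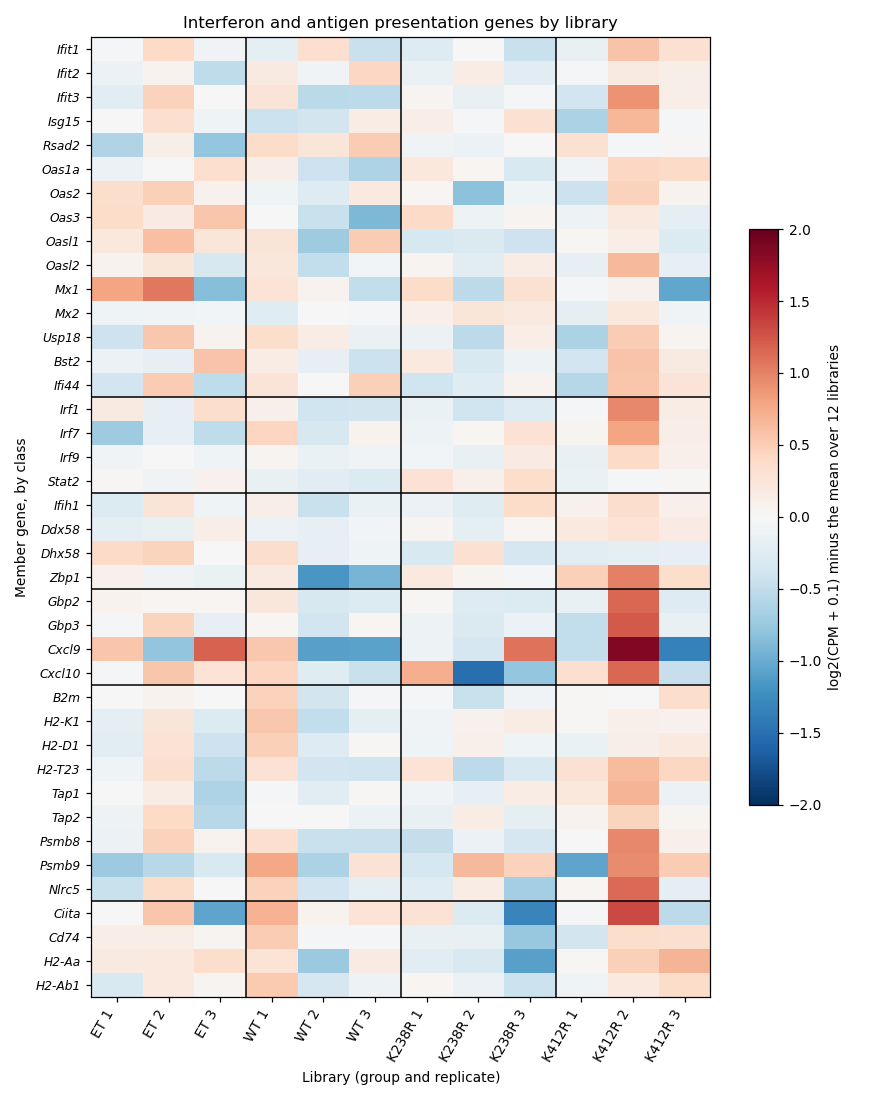
Level of the 40 members in the 12 libraries, as log2(CPM + 0.1) minus the mean of each gene over all libraries, with members in rows by class and libraries in columns by group. K412R replicate 2 is the highest of 12 libraries for 22 of the 40 members, and the column of WT replicate 1 is high in the MHC genes.

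No member differed between any pair of groups at an adjusted p under 0.05 in edgeR's quasi-likelihood test over all genes. The 6 comparisons share groups, so their values stand side by side and are not independent of each other. For WT against ET, 0 of 40 members passed (0.0489% of all genes tested) and 3 had an unadjusted p under 0.05 (29.1% of all genes), while DESeq2 called 0 members (10.5% of all genes). For K238R against WT, 0 members passed (0.174% of all genes), 2 had an unadjusted p under 0.05 (17.6%) and DESeq2 called 1, Stat2 (4.13%). For K412R against WT, 0 members passed (2.02% of all genes), 3 had an unadjusted p under 0.05 (22.8%) and DESeq2 called 1, Zbp1 (9.26%). At most 3 of the 40 members had such a p in these comparisons with WT, beside 17.6% to 29.1% of all genes.

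For K238R against ET, 0 members passed (0.0% of all genes), 2 had an unadjusted p under 0.05 (5.58%) and DESeq2 called 0 (0.0467%). For K412R against ET, 0 members passed (0.0% of all genes), 3 had an unadjusted p under 0.05 (7.86%) and DESeq2 called 0 (0.506%). For K412R against K238R, 0 members passed (0.0217% of all genes), 5 had an unadjusted p under 0.05 (11.9%) and DESeq2 called 0 (1.85%). The members' counts of 2, 3 and 5 of 40 lie near the shares of all genes.

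A change of at least 2-fold with an unadjusted p under 0.05 repeats the thresholds of the study, here with edgeR's p-values where the study used DESeq2. It was met by 1 member, Zbp1 in K412R against WT, where 5.05% of all genes met it. It was met by 0 of 40 members in the other 5 comparisons. Of all genes, it was met there by 6.08% for WT against ET, 5.28% for K238R against WT, 0.951% for K238R against ET, 1.59% for K412R against ET and 2.52% for K412R against K238R. With this depth and this spread between teratomas, these differences are bounded only in part. The 95% interval of the fold change lay wholly within 2-fold for 28 of 40 members in WT against ET, beside 65.4% of all genes. It did so for 25 in K238R against WT (69.1% of all genes) and 24 in K412R against WT (67.6%). For K238R against ET it did so for 26 members (73.8%) and for K412R against ET for 25 (73.9%). For K412R against K238R it did so for 22 (72.6%). Some genes separated groups in full, with no overlap between libraries. In K412R against WT, 5 members were fully higher and 0 fully lower, beside 2656 and 3060 of the 18405 genes. In WT against ET these were 1 and 2 (1731 and 2105), and in K238R against WT 2 and 2 (2334 and 2075). In K238R against ET they were 3 and 6 (908 and 781), and in K412R against ET 3 and 2 (922 and 1057). In K412R against K238R they were 8 and 1 (1611 and 1880).

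The median log2 fold change of the members was -0.08 for WT against ET and -0.08 for K238R against WT, beside -0.01 and 0.00 over all genes tested. Neither sign held with each library left out, since the first was 0.04 without ET replicate 2 and -0.22 without WT replicate 1, and the second was 0.05 without WT replicate 1 and -0.20 without WT replicate 2. For K238R against ET it was -0.17, beside -0.02 over all genes, with 14 of 40 members above 0. For K412R it was 0.25 against WT, 0.19 against ET and 0.32 against K238R, beside 0.01, -0.02 and -0.01 over all genes. In these 3 comparisons 31, 33 and 34 of the 40 members lay above 0. Without K412R replicate 2 the medians were -0.02, -0.08 and 0.08, and 18, 17 and 24 members lay above 0. The higher median of K412R thus rested on 1 of its 3 teratomas.

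**Figure D2:**
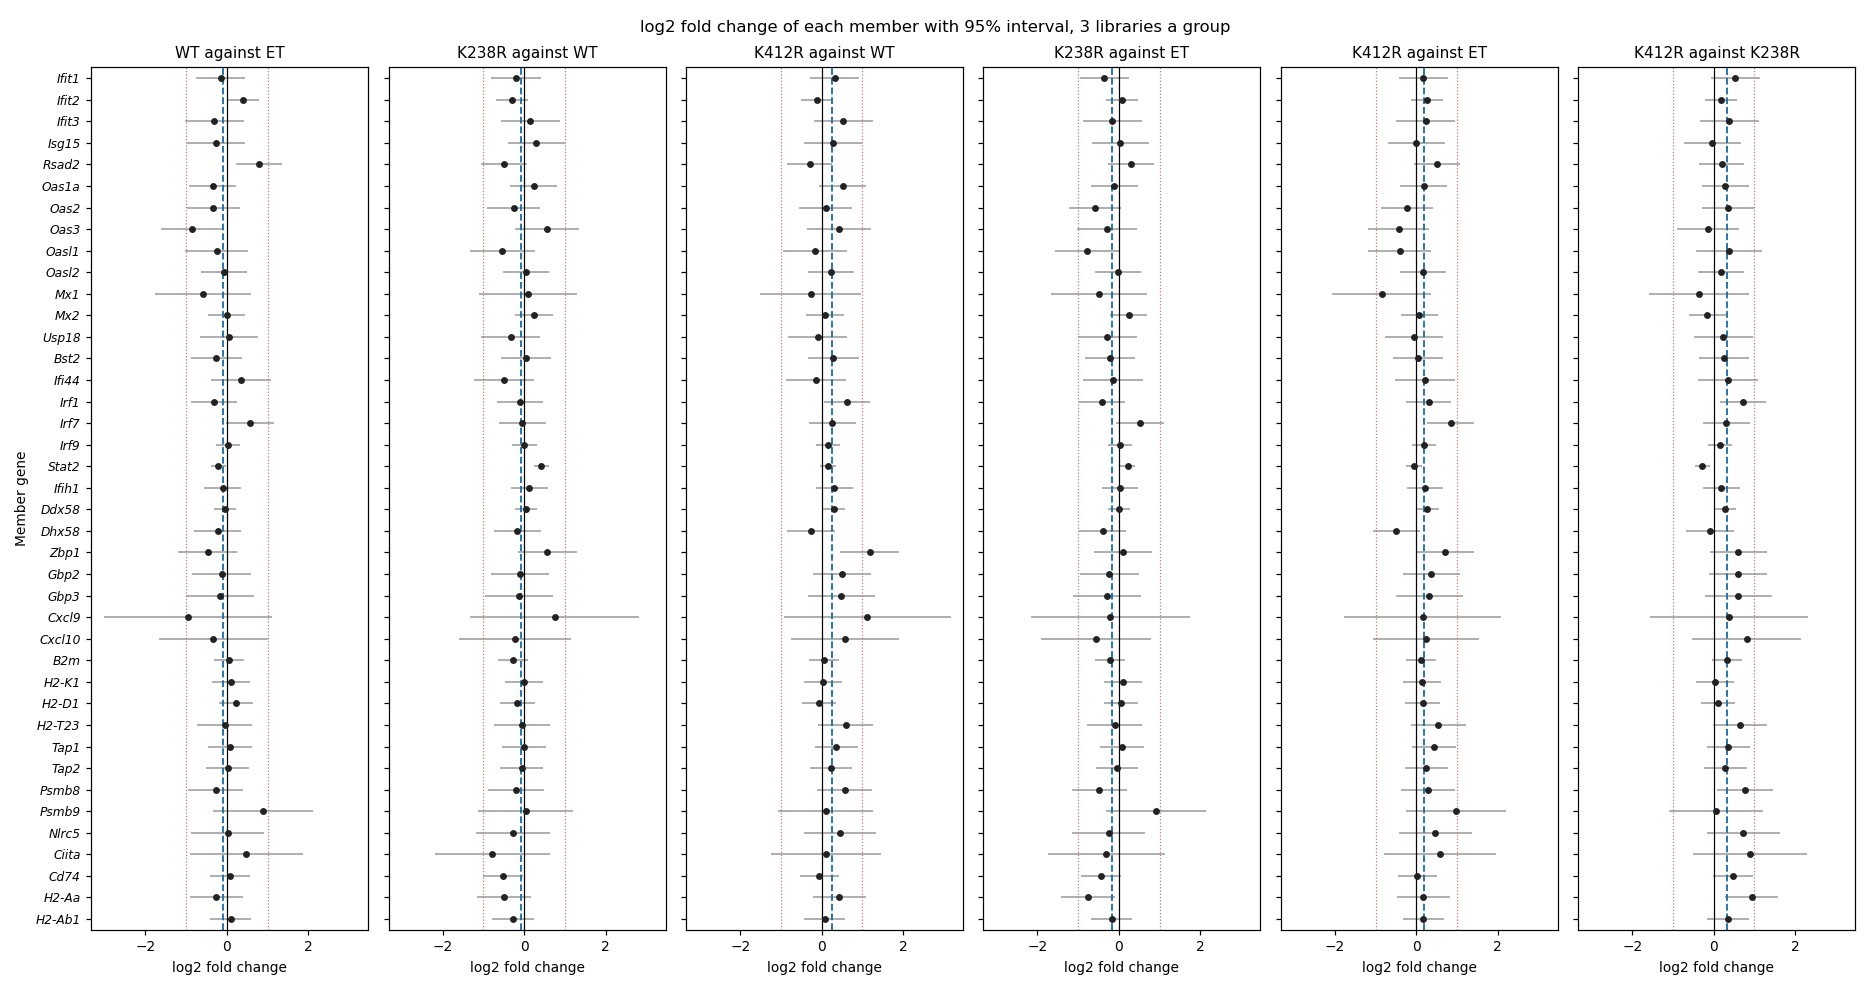
log2 fold change of each member in the 6 comparisons, with points for edgeR's estimates, bars for 95% intervals, dotted lines at 2-fold and a dashed line at the median of the members. No member passed an adjusted p of 0.05, and the dashed line lies to the right of 0 in the 3 comparisons of K412R.

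The interferon-gamma GTPases showed the pattern of that single tumour most plainly. Gbp2, a guanylate-binding protein that attacks the vacuoles of intracellular microbes, stood at 10.1, 9.85 and 9.78 CPM in ET and at 11.2, 7.64 and 7.87 CPM in WT. In the K238R-labelled libraries it stood at 9.71, 8.001 and 7.87 CPM, and in K412R at 8.64, 21.3 and 8.03 CPM. Only replicate 2 of K412R left the range of the other libraries, at 1.91 times the next highest. The log2 fold change of K412R against WT was 0.51 (standard error 0.33, adjusted p = 0.368), and without that library it was -0.13.

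Gbp3, a related GTPase, stood at 5.40, 18.0 and 6.85 CPM in K412R and between 5.80 and 10.4 CPM in the libraries of the other groups. Cxcl9, a chemokine that attracts T cells and is induced mainly by interferon-gamma, had 7, 42 and 3 counts in K412R and between 4 and 26 counts elsewhere. Its group means had the largest ratio of its class, 2.17 between K412R and WT, with a log2 fold change of 1.12 and a standard error of 0.94, and -0.69 without K412R replicate 2. Cxcl10, a chemokine of the same receptor, had 19, 34 and 10 counts in K412R and 4 to 26 elsewhere. For all 4 genes of this class replicate 2 of K412R was the highest library.

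Measured against the mean of each gene over the 12 libraries, the median of this class was 1.19 on the log2 scale in K412R replicate 2 and between -0.36 and 0.32 in the other 11. The summed level of the class was 43.6 CPM there and 14.3 to 21.8 CPM elsewhere. The other K412R teratomas, with 15.5 and 15.6 CPM, were within the range of the remaining groups. In the fits, all 4 members lay above 0 for K412R against ET, with a median of 0.28, and without replicate 2 none of the 4 did, with a median of -0.38.

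K412R replicate 2 was the highest of the 12 libraries for 22 of the 40 members (55.0%), as it was for 4.31% of all genes tested, and it was the lowest for none. It was at least 1.5-fold above every other library for 6 members, Gbp2, Gbp3, Irf1, Nlrc5, Cxcl9 and Ciita, which is 15.0% of the members and 0.196% of all genes (36 of 18405). No member stood 1.5-fold above the rest in any other library. This 1.5-fold limit was chosen after the values were seen. Of the further pathway genes, 22 of 75 tested were highest in this library and 6 were 1.5-fold above all others, namely Gbp4, Gbp5, Gbp7, Igtp, Irgm1 and Ifi47.

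When all tested genes were ordered by the ratio of K412R replicate 2 to the next highest library, GTPases of these families took the leading places. Gbp5 came first with 12.3 CPM, 7.68 times the next library, followed by Iigp1 with 21.5 CPM and 6.18 times. Gbp4 had 20.0 CPM and 5.64 times, Tgtp2 15.9 CPM and 4.36 times, and Igtp 21.7 CPM and 3.14 times. These are immunity-related GTPases and guanylate-binding proteins, both textbook targets of interferon-gamma. Gbp5 had 217 counts in this library and 12 to 28 in the others. Among the genes next in this order were Muc6, Pgc, Gkn1 and Gkn2, which belong to the lining of the stomach, with ratios of 2.13, 2.07, 1.95 and 1.84.

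**Figure D3:**
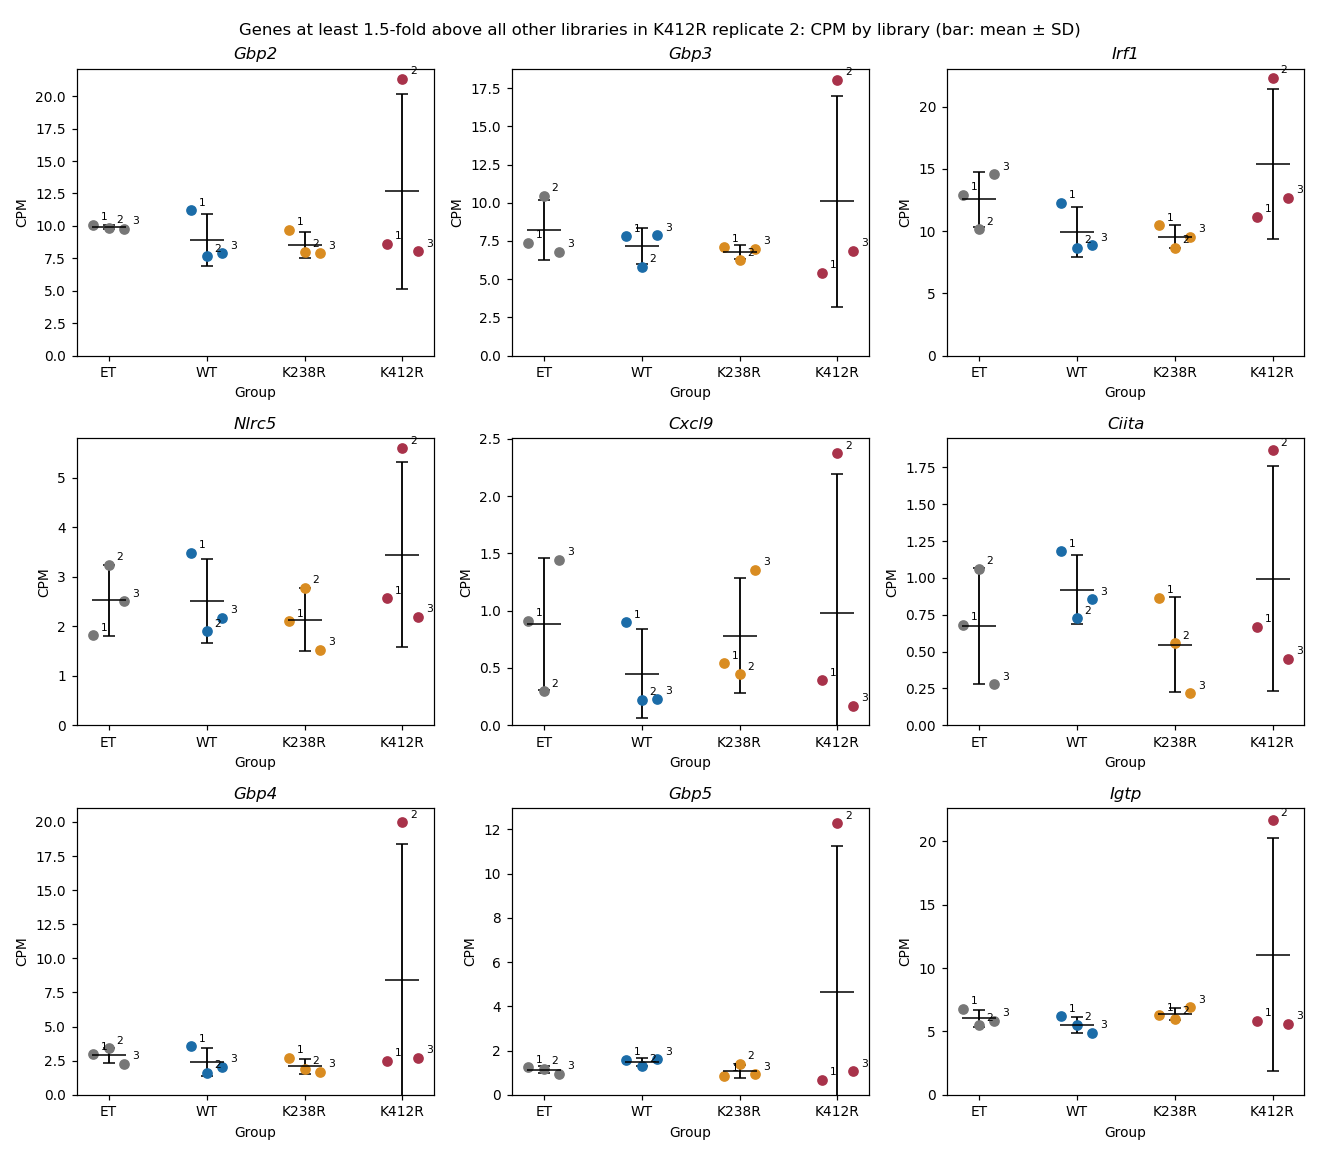
CPM by group of the 6 members and of 3 further GTPases (Gbp4, Gbp5, Igtp) at least 1.5-fold above all other libraries in K412R replicate 2; points are libraries numbered by replicate, and bars are the mean ± SD of 3, cut at 0 where the SD passes it. In each panel the point numbered 2 of K412R lies above all others, while points 1 and 3 lie among or, for Gbp3, Gbp5 and Cxcl9, in part below those of the other groups.

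The ligands themselves were hardly seen. Ifng, the gene of interferon-gamma, had 0 counts in K412R replicate 2, which allows up to 0.170 CPM, and at most 3 counts in any library. Ifnb1, a type I interferon, had 2 counts in K412R replicate 1 and 0 in the other 11 libraries. Of the cells that make interferon-gamma, the T cell receptor genes Cd3e, Cd3d and Cd3g had between 0 and 3 counts each in every library. Of the other T cell markers listed, Cd8a had 0 to 5 counts per library. Cd4 had 19 to 47 counts per library, with 32 in K412R replicate 2. The 7 NK cell markers together reached 62 counts in WT replicate 1 and 20 in K412R replicate 2. The 11 macrophage markers summed to 352.4 CPM in K412R replicate 2, within the 232.3 to 447.8 CPM of the other libraries. The 5 neutrophil markers summed to 4.69 CPM there and to 2.00 to 3.88 CPM elsewhere, with the defining marker Ly6g at 0 in all 12. The part of these cells in the pattern was not tested. Floors of this kind cover counting error only.

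The receptors and kinases of the pathway, 7 genes, were measured well in every library, and none passed the adjusted test in any comparison. DESeq2 called 2 of the 7, Ifngr2 and Jak1, in WT against ET, beside 10.5% of all genes. Ifngr1 lay between 22.7 and 32.8 CPM and Ifnar1 between 78.8 and 96.2 CPM. K412R replicate 2 was inside both ranges, at 26.0 and 83.2 CPM.

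Among the members that are transcription factors, Stat2, a factor of type I signalling, showed the lowest p-value of the whole list. It stood at 37.5, 35.1 and 39.3 CPM in ET, at 33.2, 31.6 and 30.5 CPM in WT, at 45.3, 39.7 and 46.9 CPM in the K238R-labelled libraries and at 33.6, 36.2 and 37.5 CPM in K412R. In CPM, every library labelled K238R was above every library of the other groups, narrowly for its replicate 2 against ET replicate 3. Every WT library was below every library of the other groups. K238R against WT gave a log2 fold change of 0.43 (standard error 0.09, unadjusted p = 0.000412), 1.34 times higher in the first, with an adjusted p of 0.0766 from edgeR.

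The call on Stat2 depended on the tool. DESeq2 gave an adjusted p of 0.00229, and over the alternatives it ranged from 0.00229 to 0.295. The log2 fold change stayed between 0.39 and 0.48. Against ET the K238R-labelled libraries lay 0.22 higher (standard error 0.09, adjusted p = 0.805), and K412R lay 0.27 below K238R (log2 fold change -0.27, standard error 0.09, adjusted p = 0.251). WT against ET gave -0.21 (standard error 0.09, adjusted p = 0.148). The Stat2 differences are small, with group means from 31.7 to 44.0 CPM, and rest on 534 to 864 counts per library.

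Irf7, which drives type I interferon genes after infection, stood at 2.62, 3.83 and 3.002 CPM in ET and at 5.85, 3.46 and 4.56 CPM in WT. The K238R-labelled libraries held 4.04, 4.44 and 5.32 CPM and K412R held 4.51, 7.52 and 4.77 CPM. All 3 K412R libraries lay above all 3 ET libraries, as did those labelled K238R, while WT overlapped with ET. K412R against ET gave a log2 fold change of 0.84 (standard error 0.27, unadjusted p = 0.00894, adjusted p = 0.477). Without K412R replicate 2 it was 0.55, and over the alternatives the adjusted p was between 0.109 and 0.885.

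Irf1, a factor induced strongly by interferon-gamma, stood at 11.1, 22.3 and 12.7 CPM in K412R. It was between 8.67 and 10.5 CPM in the K238R-labelled libraries, between 8.64 and 12.3 CPM in WT and between 10.1 and 14.6 CPM in ET. K412R against K238R gave 0.72 (standard error 0.26, adjusted p = 0.294) and K412R against WT 0.63 (standard error 0.26, adjusted p = 0.179). Without K412R replicate 2 they came to 0.32 and 0.23. Irf9, the DNA-binding part of the complex with Stat2, was the steadiest of the 4, from 18.2 to 22.6 CPM in 11 libraries and 26.3 CPM in K412R replicate 2.

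Among the sensors, Zbp1, which recognises left-handed nucleic acids and can trigger cell death, was the member with the largest difference past an unadjusted p of 0.05. It stood at 3.58, 3.18 and 3.06 CPM in ET, at 3.82, 1.45 and 1.71 CPM in WT, at 3.88, 3.5 and 3.26 CPM in the K238R-labelled libraries and at 4.74, 6.84 and 4.32 CPM in K412R. All 3 K412R libraries lay above all other libraries. Against WT alone, full separation with K412R higher was met by 2656 of the 18405 genes tested. WT was split, with replicate 1 at the level of ET and replicates 2 and 3 at less than all other libraries. K412R against WT gave a log2 fold change of 1.18 (standard error 0.33, unadjusted p = 0.00374), 2.27 times higher in K412R, with an adjusted p of 0.0778 from edgeR and 0.0126 from DESeq2.

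That Zbp1 difference moved with single tumours in both groups, upward without WT replicate 1 and downward without K412R replicate 2. Without WT replicate 1 the log2 fold change was 1.71 and the adjusted p 0.0155, in a fit that called 1008 genes over all genes. Without K412R replicate 2 it was 0.93 with an adjusted p of 0.178. Over all alternatives the adjusted p lay between 0.0126 and 0.291, with the same direction throughout. Against ET, K412R was 0.71 higher (standard error 0.32, adjusted p = 0.628), and against K238R it was 0.61 higher (standard error 0.32, adjusted p = 0.50). These came to 0.46 and 0.36 without K412R replicate 2.

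Ddx58 (Rigi), which senses viral RNA with free triphosphate ends, differed by little. It stood at 20.7, 21.9 and 20.2 CPM in K412R, above the 9 other libraries, which lay between 15.7 and 19.9 CPM. The margin was narrow, with 20.2 CPM in K412R replicate 3 and 19.9 CPM in ET replicate 3. CPM leave out the TMM factors of the fit, and this order was not tested with them. The log2 fold change of K412R was 0.32 against WT (standard error 0.12, adjusted p = 0.165), 0.28 against ET (standard error 0.12, adjusted p = 0.628) and 0.27 against K238R (standard error 0.12, adjusted p = 0.413). Without K412R replicate 2 these were 0.26, 0.22 and 0.22. Ifih1, the sensor of long double-stranded RNA, lay between 6.58 and 11.6 CPM with all groups overlapping. Dhx58, a regulator of both, lay between 1.57 and 2.77 CPM, and its 3 K412R libraries, at 1.73, 1.75 and 1.80 CPM, were below all 3 ET libraries (log2 fold change -0.48, standard error 0.27, adjusted p = 0.677).

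**Figure D4:**
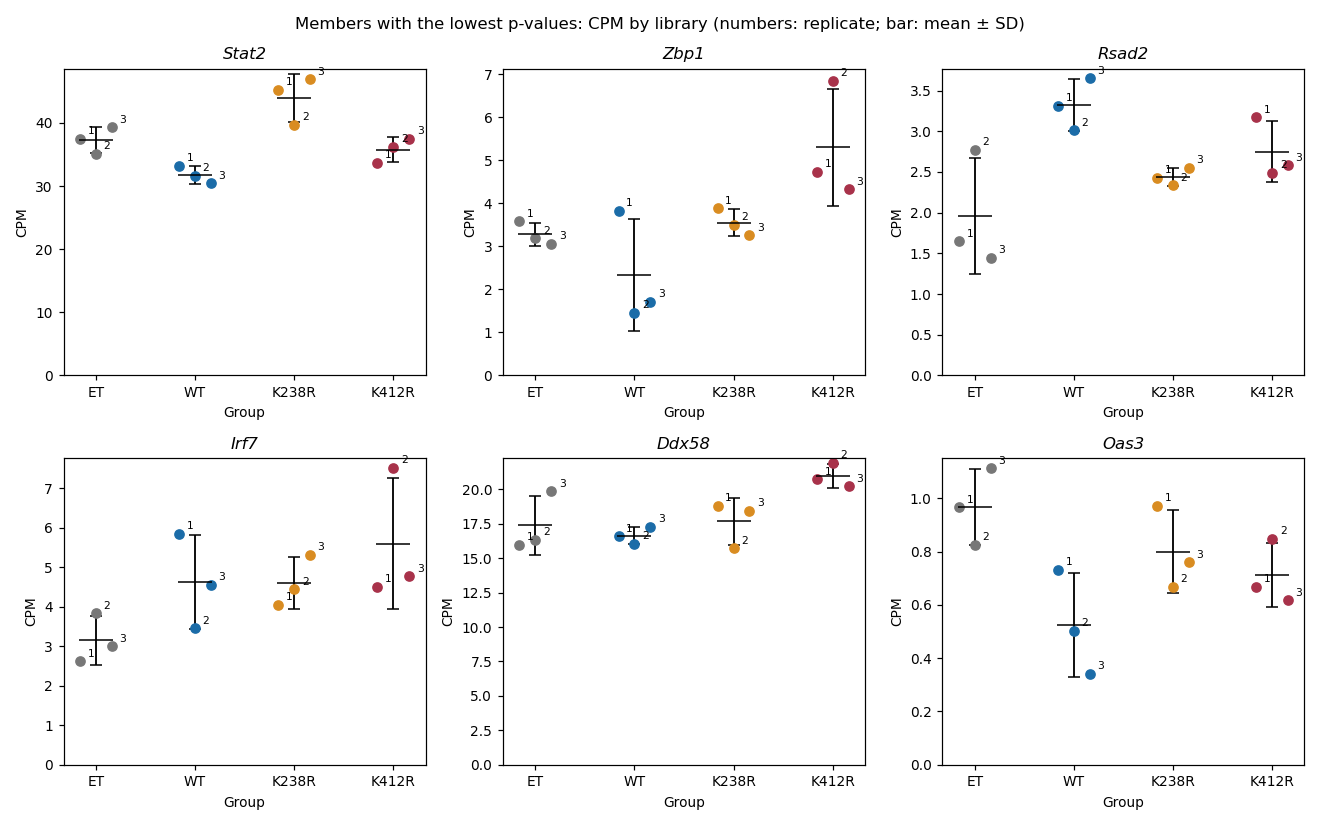
CPM by group of 6 members with low unadjusted p-values in at least 1 comparison (Stat2, Zbp1, Rsad2, Irf7, Ddx58, Oas3); points are libraries numbered by replicate, and bars are the mean ± SD of 3. Stat2 is highest in the K238R-labelled libraries and lowest in WT. Zbp1 is highest in all 3 K412R libraries, and so is Ddx58 by a narrow margin that depends on the scaling to the library total.

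The antiviral effectors gave no common direction. For WT against ET, 4 of the 15 lay above 0 with a median of -0.25, and Rsad2 went the other way. Rsad2 (viperin), which blocks viral replication by making a chain-terminating nucleotide, stood at 1.65, 2.77 and 1.44 CPM in ET and at 3.32, 3.01 and 3.65 CPM in WT. It stood at 2.43, 2.33 and 2.55 CPM in the K238R-labelled libraries and at 3.18, 2.49 and 2.58 CPM in K412R. Each WT library exceeded each ET and each K238R-labelled library.

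WT against ET gave a log2 fold change of 0.80 for Rsad2 (standard error 0.26, unadjusted p = 0.00989, adjusted p = 0.112), 1.70 times in group means. Without ET replicate 2 it was 1.13 with an adjusted p of 0.0095, the lowest of all alternatives, and the highest was 0.398. The fit without ET replicate 2 called 5820 genes over all genes in WT against ET. K238R against WT gave -0.49 (standard error 0.26, adjusted p = 0.329). These values rest on 26 to 64 counts per library.

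Oas3, one of the synthases that make the activator of RNase L, had 17, 14 and 20 counts in ET against 13, 9 and 6 counts in WT. The K238R-labelled libraries held 18, 12 and 14 counts, and K412R held 12, 15 and 11. In CPM, all WT libraries were below all ET libraries, with a log2 fold change of -0.86 (standard error 0.35, adjusted p = 0.144, range over the alternatives 0.0828 to 0.438). Oas1a and Oas2 overlapped between WT and ET, with 1.77 to 3.503 CPM and 2.34 to 3.95 CPM over both groups. Reads of the Oas1 copies, which are near identical, may have been shared between them. Oasl1 lay between 0.71 and 0.78 CPM in the K238R-labelled libraries and between 1.14 and 1.53 CPM in ET, which gave a log2 fold change of -0.79 with a standard error of 0.36 (adjusted p = 0.805). Oasl2 was the better measured of that pair, at 7.36 to 16.3 CPM, with its highest value in K412R replicate 2.

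Ifit2, of the tetratricopeptide proteins that hold back viral mRNA, was the effector with most counts, 193 to 360 per library. Its group means were 13.7 ± 2.75 CPM in ET, 17.5 ± 2.94 in WT, 14.7 ± 2.06 in the K238R-labelled libraries and 16.4 ± 1.29 in K412R (SD, n = 3), and all groups overlapped. Its relatives Ifit1 and Ifit3 lay between 2.39 and 4.92 CPM and between 3.23 and 8.93 CPM, both highest in K412R replicate 2. Isg15, the ubiquitin-like protein that is joined to other proteins in the response, stood at 1.78, 4.52 and 2.75 CPM in K412R, so that this group held both the lowest and the highest library of the 12. Usp18, which removes Isg15 again, lay between 1.95 and 4.48 CPM and was lowest in K412R replicate 1.

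Mx1, a GTPase against influenza viruses, had few counts, between 5 and 26, and its group means had the largest ratio among the effectors, 1.85 between ET and K412R. Its ET libraries held 22, 26 and 6 counts, so the spread within ET was as wide as the difference (log2 fold change of K412R against ET -0.85, standard error 0.55, adjusted p = 0.719). Mx2 was even across all libraries, 2.02 to 2.89 CPM. Bst2 (tetherin), which holds budding viruses at the membrane, lay between 4.45 and 9.06 CPM, and Ifi44 between 2.23 and 4.98 CPM. For both genes the groups overlapped in all comparisons.

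None of the 9 genes of the MHC class I pathway passed the adjusted test, and their group means differed by ratios from 1.09 for H2-K1 to 1.98 for Psmb9. B2m, the light chain of every class I molecule, had 97.2 ± 2.35 CPM in ET, 99.2 ± 28.8 in WT, 84.8 ± 12.6 in the K238R-labelled libraries and 104.6 ± 14.4 in K412R (SD, n = 3). WT against ET gave 0.05 on the log2 scale, with a 95% interval from -0.31 to 0.42. The heavy chains H2-K1 and H2-D1 lay between 20.1 and 41.1 CPM and between 32.1 and 60.04 CPM. These genes are polymorphic and near identical to other class I genes, the tumours hold host and graft alleles, and the counts do not separate them.

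WT replicate 1 was the highest of the 12 libraries for B2m (130.7 CPM), H2-K1 (41.1 CPM) and H2-D1 (60.04 CPM), and the other WT teratomas held 74.1 and 92.9 CPM of B2m. The same library had the highest sum of the 11 macrophage markers, 447.8 CPM, against 304.6 and 279.0 CPM in the other WT libraries, and all 11 were above 0 in every library. Its Ptprc, the gene of the leukocyte antigen CD45, was also the highest, at 12.4 CPM. The part of such cells in the class I values was not tested.

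Among the members that make and carry peptides for class I, Tap1, Tap2, Psmb8 and Psmb9 were each highest in K412R replicate 2. Tap1, a subunit of the transporter that carries peptides into the endoplasmic reticulum, stood at 7.97, 11.1 and 6.34 CPM in K412R and between 4.45 and 7.67 CPM in the other groups. Its partner Tap2 lay between 3.34 and 6.73 CPM. Psmb8, a subunit of the immunoproteasome, stood at 4.57, 8.93 and 4.88 CPM in K412R and between 3.24 and 4.17 CPM in the K238R-labelled libraries (log2 fold change 0.77, standard error 0.31, adjusted p = 0.353). Without K412R replicate 2 this log2 fold change was 0.37.

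Psmb9, the companion subunit, had 7 to 33 counts and the largest ratio of group means in the class, 1.98 between K412R and ET. Its K412R libraries held 7, 33 and 24 counts and overlapped with the 9, 10 and 13 counts in ET libraries, with 0.98 on the log2 scale and a standard error of 0.56 (adjusted p = 0.685). That difference was 0.48 without K412R replicate 2. H2-T23, which encodes the non-classical molecule Qa-1, stood at 2.84, 3.62 and 3.09 CPM in K412R and at 2.81, 1.73 and 1.71 CPM in WT. In CPM, all K412R libraries lay narrowly above all WT libraries and above all of those labelled K238R. The nearest libraries were K412R replicate 1 with 51 counts, WT replicate 1 with 50 and K238R replicate 1 with 52. The log2 fold change against WT was 0.60 (standard error 0.31, adjusted p = 0.267), and 0.47 without K412R replicate 2. Nlrc5, the master activator of class I genes, stood at 2.56, 5.60 and 2.19 CPM in K412R and between 1.52 and 3.48 CPM elsewhere.

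The MHC class II genes were lowest in the K238R-labelled libraries in each group mean. Cd74, the invariant chain that guides class II molecules, stood at 17.1, 16.98 and 16.1 CPM in ET, at 22.2, 15.0 and 15.1 CPM in WT, at 14.02, 14 and 9.07 CPM in the K238R-labelled libraries and at 11.9, 19.7 and 19.3 CPM in K412R. All libraries labelled K238R were below all WT and all ET libraries. K238R against WT gave -0.53 (standard error 0.22, unadjusted p = 0.0363, adjusted p = 0.255) and against ET -0.45 (standard error 0.22, adjusted p = 0.805).

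H2-Aa, the alpha chain, stood at 5.86, 5.96 and 6.62 CPM in ET, at 6.30, 3.07 and 5.82 CPM in WT, at 4.47, 4.17 and 2.39 CPM in the K238R-labelled libraries and at 5.24, 7.24 and 8.36 CPM in K412R. K412R against K238R gave a log2 fold change of 0.93 (standard error 0.30, unadjusted p = 0.0093, adjusted p = 0.251, range over the alternatives 0.0929 to 0.614), and the libraries did not overlap. K238R against ET gave -0.75 (standard error 0.30, adjusted p = 0.805), again without overlap. H2-Ab1, the beta chain, overlapped in all 6 comparisons, at 5.38 to 10.5 CPM. Ciita, the master activator of class II, had 4 to 33 counts and was highest in K412R replicate 2.

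All 4 class II members lay below 0 in K238R against WT, with a median log2 fold change of -0.52, and against ET, with a median of -0.38. In K412R against K238R all 4 lay above 0, with a median of 0.69, and of 0.33 without K412R replicate 2. The 9 further class II genes tested had medians of -0.01 in K238R against WT and 0.02 in K238R against ET, with 4 and 5 of them above 0. For each of the 4, replicate 3 of the K238R-labelled libraries was the lowest of the 12, and their median there was -0.92 on the log2 scale against their means. Some markers of leukocytes were also lower in the K238R-labelled libraries. Ptprc stood between 5.27 and 5.99 CPM in the K238R-labelled libraries and between 7.07 and 12.4 CPM in the other 9. Its log2 fold change of K238R against WT was -0.77 (standard error 0.19, adjusted p = 0.101 from edgeR and 0.0114 from DESeq2).

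All 11 macrophage markers lay below 0 in K238R against WT, with a median of -0.34. Of these 11 markers, 2 had an unadjusted p under 0.05, beside 17.6% of all genes, and none passed the adjusted test. Their sum was lowest in replicate 3 of the K238R-labelled libraries, at 232.3 CPM. The range of the sum was 232.3 to 321.3 CPM in the K238R-labelled libraries, 277.8 to 383.9 in ET, 279.0 to 447.8 in WT and 336.0 to 352.4 in K412R. The 7 markers of dendritic cells, another class II cell type, summed to 19.3 to 22.6 CPM in the K238R-labelled libraries and 18.5 to 21.8 CPM in ET. They summed to 17.83 to 18.15 CPM in K412R and 22.5 to 24.5 CPM in WT, and Zbtb46 made up most of the sum in every library. The part of these cells in the class II values was not tested.

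**Figure D5:**
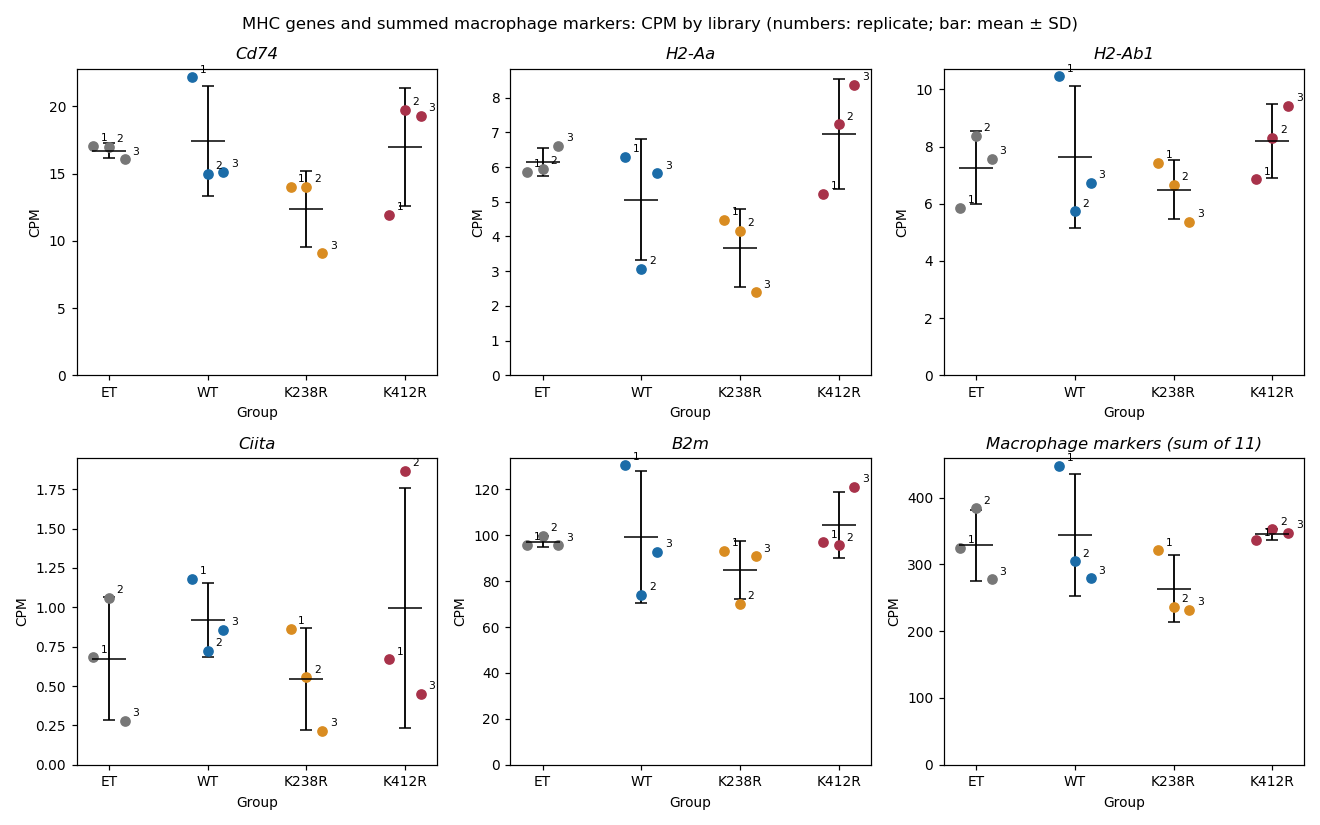
CPM by group of the 4 class II members, of B2m and of the sum of 11 macrophage markers; points are libraries numbered by replicate, and bars are the mean ± SD of 3, cut at 0 where the SD passes it. Replicate 3 of the K238R-labelled libraries is lowest in the 4 class II panels and in the macrophage sum, and WT replicate 1 is highest in B2m and in the macrophage sum.

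Of the 87 further pathway genes, 75 passed the filter, and 2 passed the adjusted test in any comparison, both higher in K412R than in WT, where 2.02% of all genes passed. Ifitm3, a membrane protein that blocks viral entry, stood at 90.8, 135.8 and 104.7 CPM in K412R and at 74.0, 46.7 and 54.3 CPM in WT. Its log2 fold change was 0.91 (standard error 0.19, adjusted p = 0.0381). Its ET libraries, at 88.8, 104.8 and 71.3 CPM, overlapped with both groups. Erap1, which trims peptides for class I, stood at 29.0, 27.3 and 28.5 CPM in K412R and at 21.1, 20.6 and 18.7 CPM in WT. Its log2 fold change was 0.47 (standard error 0.10, adjusted p = 0.0379).

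Both calls were lost when single libraries were left out, for Ifitm3 up to an adjusted p of 0.179 and for Erap1 up to 0.183, each without WT replicate 3. Erap1 was as high without K412R replicate 2 (log2 fold change 0.48, adjusted p = 0.0838), while Ifitm3 came to 0.71 (adjusted p = 0.0932). In the same comparison 15 pathway genes had an unadjusted p under 0.05 with higher levels in K412R and 3 with lower, beside 22.8% of all genes, and the median of the 75 was 0.16, or 0.01 over all genes. DESeq2 called 4 of them (9.26% of all genes), Ifitm3, Erap1, Trim21 and Socs3. The other 5 comparisons gave 0 calls in edgeR. At an unadjusted p under 0.05, 3 of the 75 pathway genes were higher and 10 lower in WT than in ET, beside 29.1% of all genes. In K238R, 2 were higher and 8 lower than in WT, beside 17.6% of all genes, and 7 were lower and none higher than in ET, beside 5.58%. In K412R, 4 were higher than in ET, beside 7.86% of all genes, and 16 higher than in K238R, beside 11.9%, with none lower in either. These K412R counts and the median of 0.16 include K412R replicate 2, the highest library for 22 of the 75 genes. They are not given without it.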

How the data were processed

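RNA of 12 teratomas, 3 per group, had been read as poly(A)-selected CORALL libraries. Per the labels and the study's methods, the authors used fastp for trimming, STAR for mapping and Salmon for quantification. The deposited values are estimated counts per gene, not normalized, and the submitters' processing notes name GRCm39. The deposited estimates are whole numbers, and they separate neither host from graft transcripts nor near-identical copies of the Gbp, Oas1 and H2 genes. The members and lists were chosen with earlier results of these data known. Groups were taken from the sample titles.

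They were fitted with edgeR 4.0.16 in R 4.3.3 (TMM factors, filterByExpr, quasi-likelihood test, 1 mean per group over all 12 libraries, 18405 genes). P-values were adjusted over all genes by Benjamini-Hochberg, and intervals are 95%. The scripts were tested on simulated data. The study used DESeq2, run here in version 1.42.0 as an alternative. Other alternatives were RLE or upper-quartile factors, no filter, 2 groups only, a replicate block and each library left out in turn. Nothing in the labels ties the tumours of a group to separate cell lines, so p-values measure the spread between the teratomas only. Replicate pairs differed beyond counting noise (chi-square over its degrees of freedom 10.5 to 52.6).

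Full values are given for members past an adjusted p of 0.05, the 3 with the lowest unadjusted p in each comparison, and in each class the member with the most counts and the one with the largest ratio of group means. Pathway and marker genes are named where they passed. All other genes named were chosen after their values were seen. Promoter windows are RefSeq's on GRCm38.p6 and were used for letters only. A result on 1 further gene is not reported here.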

Additional observations from a re-analysis of the deposited data

How the results depend on the processing

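The count of members past an adjusted p of 0.05 was 0 in all 6 comparisons, and it became 1 in DESeq2 for K238R against WT (Stat2) and for K412R against WT (Zbp1). With each library left out in turn it was 0 to 1 for WT against ET (Rsad2, without ET replicate 2). It was 0 to 1 for K238R against WT (Stat2, without ET replicate 2). It was 0 to 1 for K412R against WT (Zbp1, without ET replicate 2 or WT replicate 1), and 0 in the other 3 comparisons. Over all genes, the fit without ET replicate 2 called 5820, 807 and 1540 in these comparisons with WT. The fit without WT replicate 1 called 1008 for K412R against WT. The count past 2-fold with an unadjusted p under 0.05 was 0 to 2 for WT against ET, 0 to 1 for K238R against WT, 0 to 1 for K412R against WT (0 without WT replicate 2 or K412R replicate 2), 0 to 1 for K238R against ET, 0 to 1 for K412R against ET and 0 to 2 for K412R against K238R. Of the 75 pathway genes, WT against ET gave 6 calls in DESeq2 (10.5% of all genes). With a library left out it gave 0 to 10 (0 to 5820 over all genes). K238R against WT gave 1 in DESeq2 (4.13% of all genes). It gave 1 with no filter on low counts (272 over all genes) and 1 in a fit of 2 groups (360 over all genes). With a library left out it gave 0 to 2 (2 to 807 over all genes). K412R against WT gave 4 in DESeq2 (9.26% of all genes) and 1 with no filter (614 over all genes). With a library left out it gave 0 to 7 (10 to 1540 over all genes). K412R against K238R gave 2 in DESeq2 (1.85% of all genes) and 1 in the fit of 2 groups (52 over all genes). With a library left out it gave 0 to 2 (0 to 193 over all genes). No result past its threshold reversed. Among values that had not passed, Gbp2, Gbp3 and Cxcl9 in K412R against WT went from 0.51, 0.49 and 1.12 to -0.13, -0.27 and -0.69 on the log2 scale without K412R replicate 2. The cause of these changes was not tested.

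Whether the replicate numbers pair the libraries cannot be told from these values. Of 18 pairs with the same number, 7 had deviations that correlated above 0.1 (range -0.262 to 0.39). Pairs with different numbers ran from -0.443 (ET replicate 3 with K238R replicate 2) to 0.407 (ET replicate 3 with WT replicate 1). With the replicate number as a block, WT against ET gave 3 calls among the pathway genes (Trim25, Jak1 and Ifitm2), and the count of members past the adjusted threshold stayed 0 in all 6 comparisons. The median log2 fold change of the members in K238R against ET was -0.17, and -0.02 without ET replicate 2. Both depth and the spread between teratomas limit members with few counts. For Cxcl9, with 7, 42 and 3 counts in K412R, the standard error of the log2 fold change of K412R against WT was 0.94. Over all genes, the adjusted test called 9 genes for WT against ET, 32 for K238R against WT and 372 for K412R against WT, while DESeq2 called 1871, 785 and 1649. The replicate block gave 917, 208 and 1155. Without ET replicate 2 the first count was 5820.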
